A study of Mus musculus with 10 samples.

Results

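The SOX transcription factors are 10 genes taken by name (Sox2, Sox4, Sox5, Sox6, Sox7, Sox9, Sox11, Sox12, Sox13 and Sox18) from the 41091 genes counted in each library, with Ensembl identifiers matched to GENCODE mouse symbols. All 10 were found, and 9 of them passed the filter on low counts. Sox18 did not. SOX proteins carry an HMG box, a domain that binds the minor groove of DNA and bends it. They are sorted into lettered groups by the similarity of this box, and group members often share roles. In the olfactory epithelium of the mouse, Sox2 marks the basal stem and progenitor cells and the supporting (sustentacular) cells, Sox9 marks Bowman glands, and Sox11 is active in cells that are becoming neurons.

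Total RNA was sequenced from cells of C57BL6 mice. Adult olfactory epithelium was taken 9 days after methimazole, a drug that strips the epithelium and sets off its regrowth, and the dissociated cells were grown attached to gelatin with EGF and FGF2. The groups were 3 libraries from cells given a lentiviral short hairpin against Cbx8 (shCBX8 1, 2 and 6), 3 with a hairpin against Cbx7 (shCBX7 1, 2 and 5) and 4 with a non-targeting scramble hairpin (shCTR 1, 2, 5 and 6), although the series text gives 3 replicates per treatment. CBX7 and CBX8 are Polycomb proteins, which help to keep developmental genes silent. The replicates are described as biological, with no word on whether animals or cultures were separate, so the p-values reflect differences among these libraries, which may be technical. The labels give neither the number of hairpins per target nor the time after infection.

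Libraries held 22763014 to 50463172 gene counts, so that 1 read was worth 0.0210 to 0.0501 CPM (read counts scaled to the size of the library). Cbx8 averaged 4.95 ± 0.219 CPM in shCBX8 and 12.3 ± 2.55 CPM in shCTR (SD, n = 3 and 4; log2 fold change -1.31, SE 0.22, adjusted p = 0.00416). Cbx7 averaged 8.27 ± 4.76 CPM in shCBX7 and 13.2 ± 5.55 CPM in shCTR (n = 3 and 4) and did not pass (log2 fold change -0.67, SE 0.48, adjusted p = 0.929), so its level does not check the shCBX7 label. Unmapped reads made up 7.28 to 7.81% of reads in shCBX8, 5.03 to 6.20% in shCBX7 and 9.83 to 21.7% in shCTR, highest in shCTR 1 and 2. Reads outside annotated genes made up 15.4 to 18.6% in shCBX8, 12.5 to 15.01% in shCBX7 and 20.4 to 23.6% in shCTR, and olfactory receptor genes, read on the opposite strand, summed to 14.5 to 27.4 CPM in shCBX8, 11.02 to 16.1 CPM in shCBX7 and 32.9 to 111 CPM in shCTR. These measures separate shCTR from the other groups, so in a change against shCTR they cannot be told apart from the hairpin. Unmapped reads and reads outside annotated genes also separate shCBX8 from shCBX7, so the same limit holds for those measures in that comparison. On the first principal component shCBX8 2 lay at 49.3, between shCBX8 1 and 6 (129 and 136) and the other libraries (-90.9 to -16.0). The cultures were mixed: fibroblast markers were abundant beside markers of horizontal basal cells, the reserve stem cells. The gland markers Ltf and Aqp5 averaged 1367 and 408 CPM in shCBX8, against 261 and 55.5 CPM in shCTR. Of the other gland markers listed, Scgb1c1 also averaged higher in shCBX8, while Muc5b averaged lower there and was too low to test. Of the defining progenitor markers Neurog1 and Insm1 were too low to test, while Lgr5 and Kit could be tested. Of the mature neuron markers Cnga2 and Cnga4 were too low to test. Adcy3 averaged 22.5 CPM in shCBX8 and 42.8 CPM in shCTR, and Omp 0.276 and 0.506 CPM, and neither passed. Gnal (log2 fold change 0.90, adjusted p = 0.0486) and Gng13 (3.78, adjusted p = 0.00897) were higher in shCBX8. The plot of marker lists gives the sums of 4 lists.

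**Figure D1:**
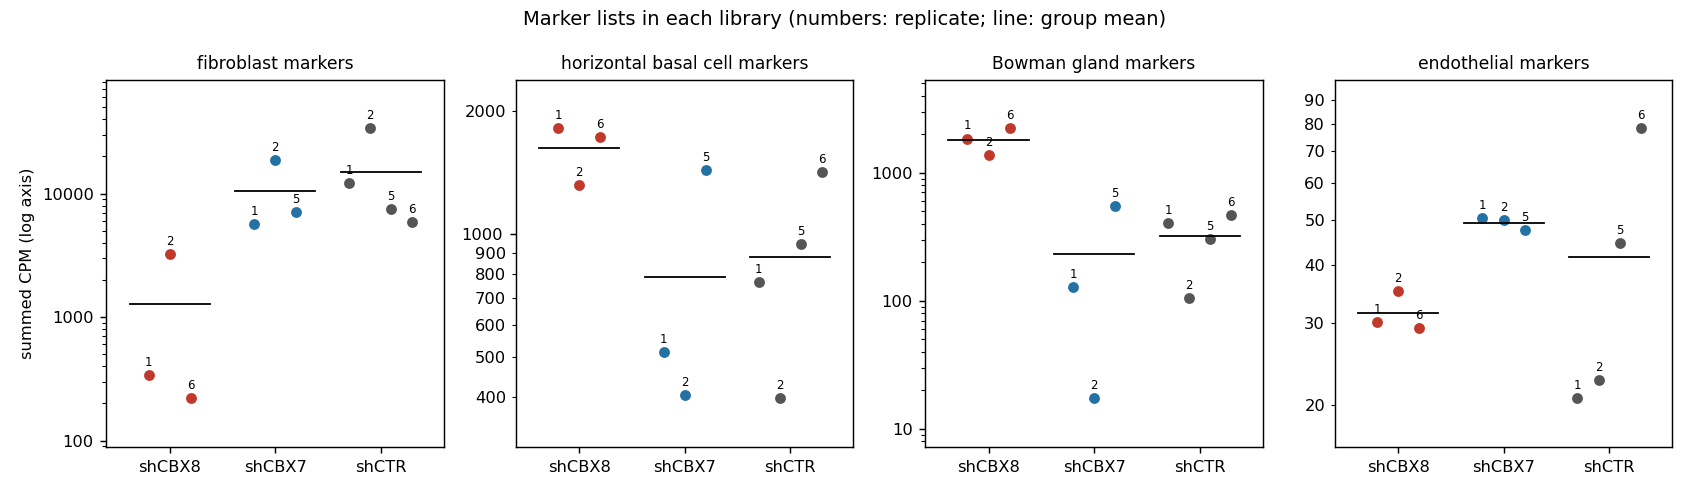
Summed CPM (log axis) of 4 marker lists in each library of shCBX8, shCBX7 and shCTR; points are libraries with their replicate number and lines are group means. Fibroblast markers summed to 220 to 3252 CPM in shCBX8 and 5878 to 33759 CPM in shCTR, with the library numbered 2 highest in each group.

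For 7 of the 10 genes RefSeq windows of GRCm38.p6 were found that run from 250 bases before to 50 after a start. Such a start can lie inside the gene or before it. The windows of Sox2 and Sox11 lie wholly before the genes as GENCODE places them, which begin at 34650405 (plus strand) and 27342574 (minus strand). Polycomb complexes in mammals are found mainly at CpG-rich promoters, so the CpG dinucleotides are set in capitals below. Sox2, Sox11 and Sox13 are shown because their transcripts were higher in shCBX8, and Sox4 because it did not follow Sox11, its group partner. The windows lie at chr3:34649745-34650044 (plus strand) for Sox2, chr12:27342669-27342968 (minus strand) for Sox11, chr1:133424163-133424462 (minus strand) for Sox13 and chr13:28953650-28953949 (minus strand) for Sox4.
Sox2: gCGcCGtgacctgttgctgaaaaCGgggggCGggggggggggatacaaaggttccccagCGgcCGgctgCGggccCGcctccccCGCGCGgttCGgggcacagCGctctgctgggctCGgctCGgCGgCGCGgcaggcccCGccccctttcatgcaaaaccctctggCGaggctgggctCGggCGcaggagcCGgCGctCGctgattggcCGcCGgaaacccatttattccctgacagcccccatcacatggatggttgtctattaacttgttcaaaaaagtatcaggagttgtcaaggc
Sox11: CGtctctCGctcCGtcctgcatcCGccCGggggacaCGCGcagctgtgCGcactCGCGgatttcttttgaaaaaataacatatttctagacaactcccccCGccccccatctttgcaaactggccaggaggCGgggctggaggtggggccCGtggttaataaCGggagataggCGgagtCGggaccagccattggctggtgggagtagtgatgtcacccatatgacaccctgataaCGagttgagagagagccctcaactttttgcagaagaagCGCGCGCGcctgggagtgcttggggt
Sox13: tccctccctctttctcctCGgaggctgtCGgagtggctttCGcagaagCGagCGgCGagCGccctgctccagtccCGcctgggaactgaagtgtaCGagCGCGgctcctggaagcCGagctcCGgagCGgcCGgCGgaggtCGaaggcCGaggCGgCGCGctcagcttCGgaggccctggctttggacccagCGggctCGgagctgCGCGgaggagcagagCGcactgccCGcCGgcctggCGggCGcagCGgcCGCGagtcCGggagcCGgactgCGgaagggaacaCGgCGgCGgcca
Sox4: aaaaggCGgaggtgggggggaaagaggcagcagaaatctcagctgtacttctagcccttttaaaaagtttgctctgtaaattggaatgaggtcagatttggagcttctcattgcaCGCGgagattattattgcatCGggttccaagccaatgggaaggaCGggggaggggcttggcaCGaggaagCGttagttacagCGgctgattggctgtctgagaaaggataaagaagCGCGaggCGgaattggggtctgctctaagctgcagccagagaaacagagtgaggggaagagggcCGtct

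These windows held 27 CpG in Sox2, 21 in Sox11, 40 in Sox13 and 12 in Sox4, against a median of 7 over 32851 windows. Sox12, whose transcripts did not pass, held 47, the most of the members' windows. Windows with at least 50% G or C and an observed-to-expected CpG ratio of at least 0.6 made up 33.5% of all windows. They were 5 of the members' 12, namely those of Sox2, Sox4, Sox11, Sox12 and Sox13, out of 7 genes with a window. The single Sox5 window held 3 CpG and the 6 Sox6 windows 2 to 13, and none of these met both limits. The Sox5 start, at 143947106, lies inside the gene, which begins at 144781977 on the minus strand. The promoter at the beginning of Sox5 was therefore not examined. Sox6 begins at 116038796, and its nearest window (start 116038744) missed only the limit on G or C (47%, CpG ratio 0.67). The other Sox6 starts lie further inside the gene. The windows of Sox4 and Sox12, which did not pass, met the limits, and those of Sox6, which rose, did not. The part of promoter CpG content in the SOX values was not tested. The letters AACAAT, a core sequence that SOX proteins bind, occurred on either strand in 1 of the 12 windows (a Sox6 start) and in 10.7% of all windows.

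In cultures with the Cbx8 hairpin, 5 of the 9 tested SOX genes rose, by 3.72-fold to 8.73-fold, and none fell. They were Sox2, Sox6, Sox7, Sox11 and Sox13. Sox4 and Sox5 were lower at an unadjusted p under 0.05, and DESeq2 called 5 members higher and 1, Sox5, lower. Over all 16669 genes tested edgeR called 32.9% in this comparison, 17.0% as higher and 15.9% as lower, and DESeq2 called 40.8%. Leaving out 1 library gave 2 to 6 called members, with 2 without shCBX8 6 and 3 without shCBX8 1, shCTR 1 or shCTR 5, where 13.2%, 13.1%, 24.2% and 24.4% of all genes were called. A count of 6 includes Sox4 or Sox5, which were lower, since beside the 5 only these were called under any alternative. The largest fold, that of Sox7, rests on shCBX8 2. The median log2 fold change was 1.89 over the 9 SOX genes and -0.013 over all genes. The groups did not overlap for 6 of the 9 (these 5 and Sox4), against 42.4% of all genes. In bulk RNA, a change in the share of cells of a type and a change in RNA per cell cannot be told apart. Fold changes are on the log2 scale of edgeR's quasi-likelihood fit, and adjusted p-values are over all genes. When shCTR 1 and 2, the libraries with the most unmapped reads, were left out together, 0 of the 9 passed, with log2 fold changes of 1.52 to 3.24 for the 5 genes, and 14.3% of all genes were called.

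**Figure D2:**
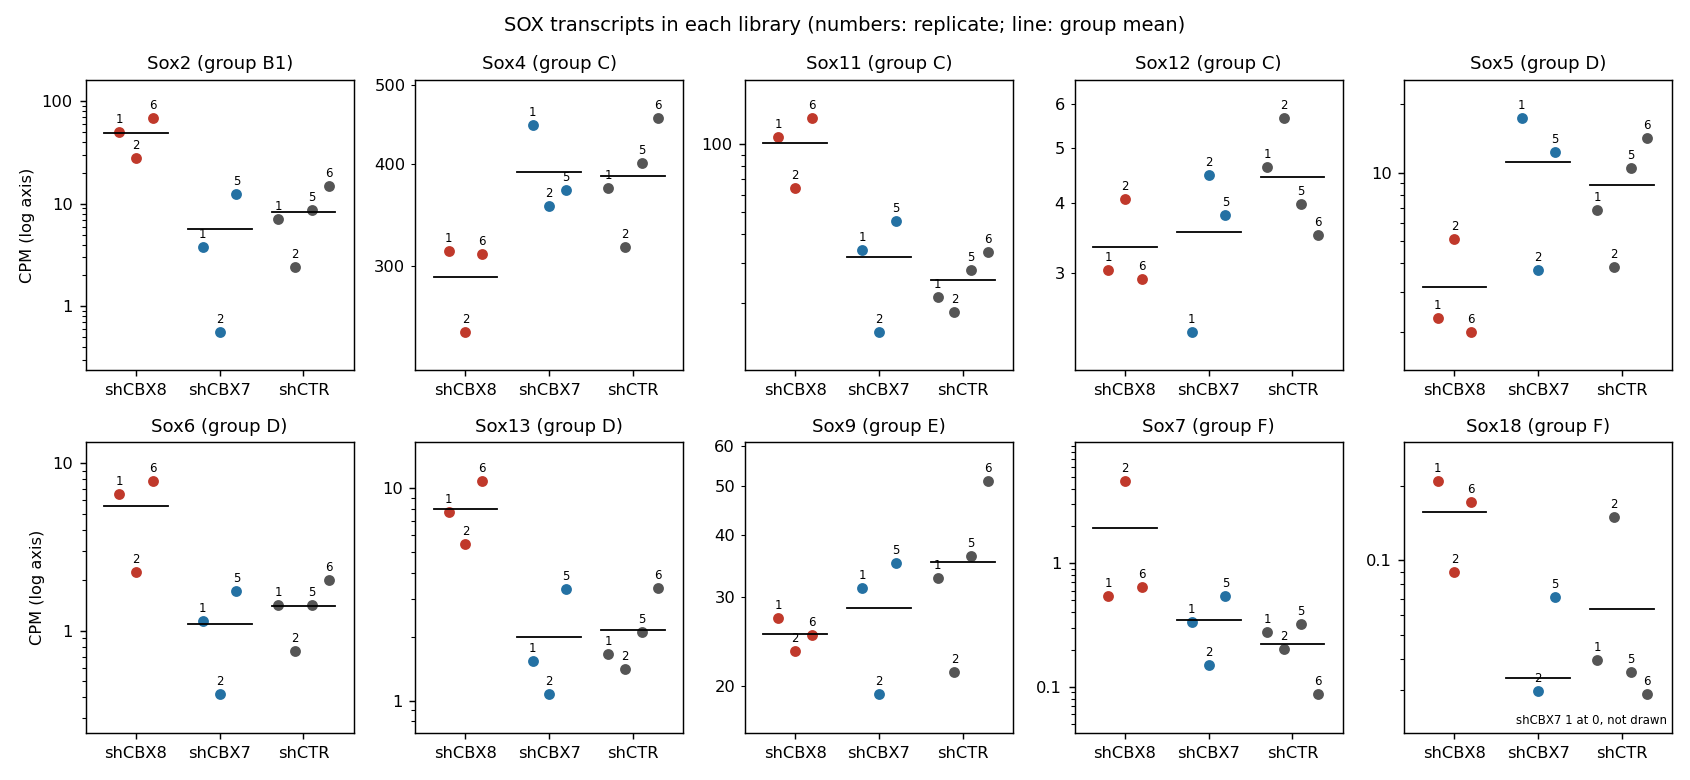
CPM (log axes, each with its own range) of the 10 SOX genes in each library of shCBX8, shCBX7 and shCTR; points are libraries with their replicate number and lines are group means. Sox2, Sox6, Sox7, Sox11 and Sox13 lie higher in every shCBX8 library than in any shCTR library, and Sox7 stands far up in shCBX8 2 alone.

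Sox2, of group B1, keeps stem and progenitor cells undifferentiated in many tissues. It is a gene of 1 exon (ENSMUSG00000074637, chromosome 3, 34650405 to 34652461, plus strand, GRCm38/mm10). It measured 50.1, 28.1 and 68.5 CPM in shCBX8 1, 2 and 6, 3.77, 0.564 and 12.6 CPM in shCBX7 1, 2 and 5, and 7.09, 2.40, 8.76 and 15.03 CPM in shCTR 1, 2, 5 and 6. Every shCBX8 library was above every other library, and the library numbered 2 was the lowest of each group. The log2 fold change against shCTR was 2.55 (SE 0.85, adjusted p = 0.0458), a 5.85-fold rise with a 95% interval of 1.55 to 22.0. The call was close to the threshold. It ended without shCBX8 1 or 6, shCBX7 1, or shCTR 1, 2 or 5 (adjusted p = 0.0608 to 0.135), with log2 fold changes of 2.22 to 2.57, and after forward-strand counts were subtracted (adjusted p = 0.0510).

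Group C holds Sox4, Sox11 and Sox12, activators that act in neuronal and mesenchymal progenitors, and each is annotated as 1 exon block. Sox11 (ENSMUSG00000063632, chromosome 12, 27334264 to 27342574, minus strand) measured 108, 64.0 and 130 CPM in shCBX8 1, 2 and 6, 34.1, 14.9 and 46.0 CPM in shCBX7 1, 2 and 5, and 21.2, 18.2, 27.9 and 33.3 CPM in shCTR 1, 2, 5 and 6. Every shCBX8 library was above all others. The rise was 2.003 on the log2 scale (SE 0.38, adjusted p = 0.00648), or 4.01-fold with a 95% interval of 2.21 to 7.29. Sox11 passed whichever single library was left out.

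Sox4 (ENSMUSG00000076431, chromosome 13, 28948919 to 28953713, minus strand), the most abundant SOX gene here, measured 313, 249 and 310 CPM in shCBX8 1, 2 and 6, 446, 355 and 372 CPM in shCBX7 1, 2 and 5, and 374, 316, 402 and 455 CPM in shCTR 1, 2, 5 and 6. The shCBX8 libraries lay below all others, by little in the case of shCTR 2. Its log2 fold change of -0.41 (SE 0.16, adjusted p = 0.0760) did not pass, although it did without shCTR 2 (-0.52, adjusted p = 0.0410) and after forward-strand counts were subtracted (-0.46, adjusted p = 0.0466). The annotated lincRNA Gm26735 covers 54.6% of the Sox4 exon on the opposite strand, and with 38 to 71 counts a library it was small beside Sox4.

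Sox12 (ENSMUSG00000051817, chromosome 2, 152393611 to 152398063, minus strand) measured 3.04, 4.06 and 2.92 CPM in shCBX8, 2.36, 4.49 and 3.804 CPM in shCBX7, and 4.63, 5.66, 3.99 and 3.51 CPM in shCTR. The groups overlapped. Against shCTR the shCBX8 libraries differed by -0.41 on the log2 scale (SE 0.28, adjusted p = 0.286), with a 95% interval of -1.05 to 0.23, so a fall to below 0.483-fold or a rise above 1.17-fold lies outside it.

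Group D holds Sox5, Sox6 and Sox13. These proteins have no activation domain of their own and pair through a coiled coil, and Sox5 and Sox6 work with Sox9 in cartilage. Sox13 (ENSMUSG00000070643, chromosome 1, 133382303 to 133424377, minus strand) measured 7.73, 5.47 and 10.8 CPM in shCBX8 1, 2 and 6, 1.54, 1.07 and 3.35 CPM in shCBX7 1, 2 and 5, and 1.66, 1.40, 2.10 and 3.40 CPM in shCTR 1, 2, 5 and 6. All shCBX8 values were above all others. It rose by 1.89 on the log2 scale (SE 0.45, adjusted p = 0.0141), or 3.72-fold with a 95% interval of 1.84 to 7.51, and the call ended without shCBX8 6 (adjusted p = 0.0627).

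Sox6 (ENSMUSG00000051910, chromosome 7, 115470872 to 116038796, minus strand) measured 6.52, 2.25 and 7.85 CPM in shCBX8 1, 2 and 6, 1.14, 0.416 and 1.74 CPM in shCBX7 1, 2 and 5, and 1.43, 0.751, 1.42 and 2.02 CPM in shCTR 1, 2, 5 and 6. shCBX8 2 stood just above shCTR 6. The log2 fold change was 1.97 (SE 0.55, adjusted p = 0.0251), or 3.92-fold with a 95% interval of 1.66 to 9.24. The call ended without shCBX8 1 or 6 or without shCTR 1, 2 or 5 (adjusted p = 0.0558 to 0.0985).

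Sox5 (ENSMUSG00000041540, chromosome 6, 143828425 to 144781977, minus strand) had the opposite sign. It measured 2.30, 5.14 and 1.9995 CPM in shCBX8 1, 2 and 6, 17.4, 3.74 and 12.3 CPM in shCBX7 1, 2 and 5, and 6.85, 3.86, 10.5 and 14.3 CPM in shCTR 1, 2, 5 and 6. shCBX8 1 and 6 lay below all other libraries, while shCBX8 2 was above shCTR 2 and shCBX7 2. The log2 fold change of -1.50 (SE 0.61, adjusted p = 0.0862) did not pass in edgeR and passed with DESeq2 (-1.51, adjusted p = 0.0315). Without the libraries numbered 2 of all 3 groups, a choice made after the values were seen, it was -2.29 (SE 0.37, adjusted p = 0.00361), and without shCBX8 2 alone it was -2.05 (adjusted p = 0.0477).

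Sox9, of group E, specifies cartilage and glands. Sox9 (ENSMUSG00000000567, chromosome 11, 112782224 to 112787760, plus strand) measured 27.4, 23.5 and 25.3 CPM in shCBX8, 31.3, 19.2 and 35.1 CPM in shCBX7, and 32.8, 21.3, 36.2 and 51.1 CPM in shCTR. All shCBX8 values lay within the shCTR range. Its log2 fold change was -0.48 (SE 0.29, adjusted p = 0.222), with a 95% interval of -1.13 to 0.17. The Bowman gland markers Aqp5, Muc5b, Ltf and Scgb1c1 summed to 1370 to 2219 CPM in shCBX8 and 105 to 470 CPM in shCTR. However, 0 of the 3 that could be tested passed in edgeR, 2 of them (Aqp5 and Ltf) having an unadjusted p under 0.05. Muc5b could not be tested and averaged lower in shCBX8, against the direction of the sum.

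Group F holds Sox7 and Sox18, factors of endothelial development, and both were low. Sox7 (ENSMUSG00000063060, chromosome 14, 63943673 to 63950732, plus strand) measured 0.545, 4.66 and 0.645 CPM in shCBX8 1, 2 and 6, 0.337, 0.149 and 0.547 CPM in shCBX7 1, 2 and 5, and 0.277, 0.2004, 0.320 and 0.0864 CPM in shCTR 1, 2, 5 and 6. shCBX8 2 alone held 155 of the 211 shCBX8 counts. The log2 fold change was 3.13 (SE 0.85, adjusted p = 0.0225), or 8.73-fold with a 95% interval of 2.33 to 32.8. Without shCBX8 2 it was 1.43 (SE 0.58, adjusted p = 0.0846), and the call ended. Counts on the strand opposite to Sox7 were up to 0.0860 CPM in shCBX8 and 0.0576 to 0.150 CPM in shCTR. Sox7 itself had 0.277 and 0.320 CPM in shCTR 1 and 5, against 0.0792 and 0.0712 CPM on the opposite strand, and the gap was smaller in shCTR 2 and 6.

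Sox18 (ENSMUSG00000046470, chromosome 2, 181669836 to 181671640, minus strand) had 10, 3 and 8 counts in the shCBX8 libraries. The shCBX7 libraries had 0, 1 and 3 counts, and the shCTR libraries had 1, 3, 1 and 1. The count of 0 allows up to 0.0632 CPM in shCBX7 1 (3 counts, counting error only). In CPM these values were 0.210, 0.0902 and 0.172 in shCBX8, 0, 0.0297 and 0.0713 in shCBX7, and 0.0396, 0.150, 0.0356 and 0.0288 in shCTR. The shCBX8 and shCTR libraries overlapped. Permuting the labels of these 7 libraries (exact test, two-sided, on log2 of CPM plus 1) gave p = 0.0857, where 0.0286 is the smallest that the 35 splits allow. Endothelial markers summed to 29.3 to 35.1 CPM in shCBX8 and 20.7 to 78.4 CPM in shCTR. Of the 9 of 10 tested, Tek and Vwf were called higher, and Cldn5 was too low to test. Flt1 (-2.02), Erg (-1.42), Cdh5 (-0.79) and Emcn (-0.72) were lower on the log2 scale without passing. Pecam1, Kdr and Esam were higher without passing. The part of endothelial cells in the levels of Sox7 and Sox18 was not tested.

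The balance between members of 1 group is given as a ratio of levels per length (RPKM, here CPM divided by the merged exon length in kilobases). The pairs were chosen after the values were seen, and those that set a risen gene over one that did not rise restate the single genes, so there is no test. The log2 ratio of Sox11 to Sox4 was -2.75 to -2.04 in shCBX8, -5.37 to -3.81 in shCBX7 and -4.93 to -4.57 in shCTR. The ratio of Sox11 to Sox12 was 3.08 to 4.58 in shCBX8, 0.83 to 2.96 in shCBX7 and 0.78 to 2.34 in shCTR. Sox13 exceeded Sox5 in all 3 shCBX8 libraries (log2 ratio 1.83 to 4.17) and was near or below it in shCBX7 (-1.76 to -0.070) and shCTR (-0.59 to 0.28). Sox6 exceeded Sox5 in shCBX8 1 and 6 only, with -1.23 to 1.93 over the shCBX8 libraries, -3.98 to -2.87 in shCBX7 and -2.93 to -2.31 in shCTR. These 4 ratios did not overlap between shCBX8 and shCTR. Both other pairs overlapped: Sox4 to Sox12 was 5.83 to 6.62 in shCBX8 and 5.70 to 6.91 in shCTR, and Sox6 to Sox13 was -3.06 to -2.03 in shCBX8 and -2.68 to -2.005 in shCTR.

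**Figure D3:**
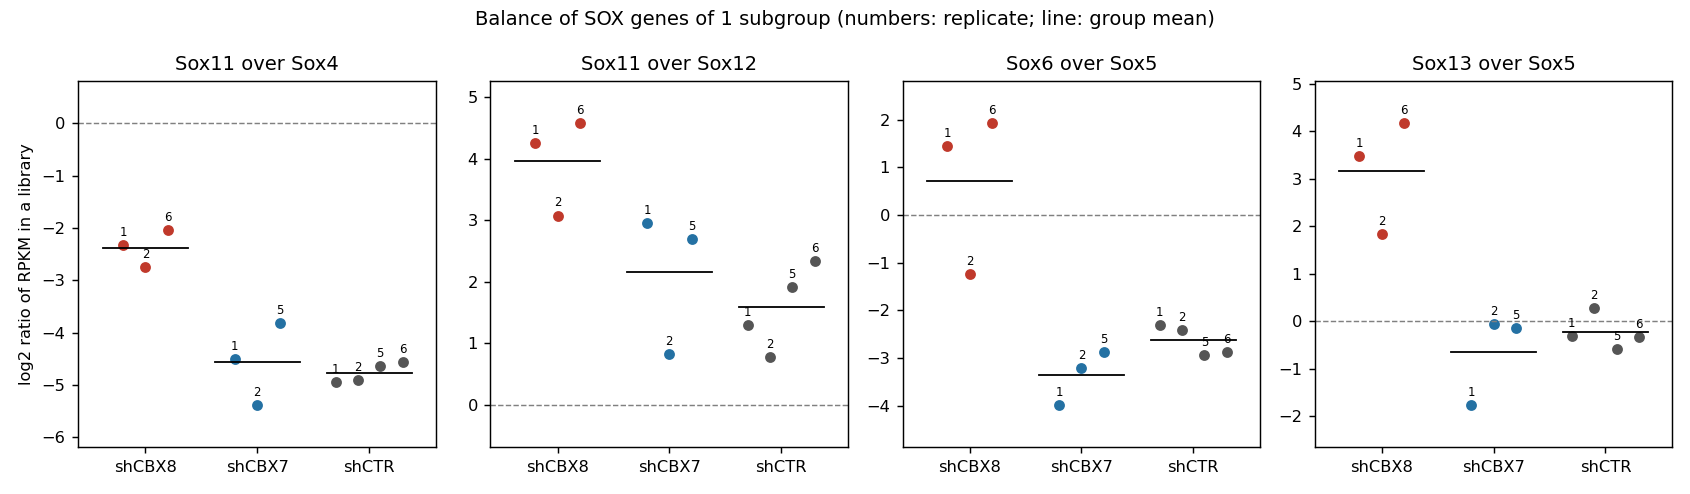
Log2 ratio of RPKM of SOX genes of 1 group in each library of shCBX8, shCBX7 and shCTR; points are libraries with their replicate number, lines are group means and the dashed line marks equal levels. All 4 ratios are higher in every shCBX8 library than in any shCTR library, and shCBX8 2 is the lowest of its group in each.

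Per length, Sox4 was the most abundant member in each group, at 60.6 ± 7.57 RPKM in shCBX8, 81.6 ± 10.1 RPKM in shCBX7 and 80.6 ± 12.1 RPKM in shCTR (SD, n = 3, 3 and 4). In shCBX8 it was followed by Sox2 (23.8 ± 9.83 RPKM), Sox11 (12.1 ± 4.07 RPKM), Sox9 (6.13 ± 0.474 RPKM) and Sox13 (1.86 ± 0.619 RPKM), and of these neighbours Sox2 and Sox11 overlapped. In shCTR it was followed by Sox9 (8.55 ± 2.97 RPKM), Sox2 (4.04 ± 2.54 RPKM), Sox11 (3.03 ± 0.815 RPKM) and Sox12 (0.999 ± 0.209 RPKM), where Sox9 overlapped Sox2 and Sox2 overlapped Sox11. In shCBX7 the order was Sox9 (6.91 ± 2.003 RPKM), Sox11 (3.81 ± 1.89 RPKM), Sox2 (2.74 ± 3.02 RPKM) and Sox12 (0.797 ± 0.244 RPKM), and each overlapped the next. The other members averaged 0.0971 to 0.750 RPKM in shCBX8, 0.0208 to 0.775 RPKM in shCBX7 and 0.0392 to 0.618 RPKM in shCTR, and Sox18 was the lowest in each group. The merged exons of Sox5 and Sox6 span 14 and 16 transcripts, which lowers their values per length.

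Within the groups the SOX genes varied with the replicate number. Over all tested genes the libraries numbered 2 deviated together between groups (r of 0.262 to 0.698). The share of all genes lowest or highest in number 2 was not counted. The following 6 of 10 can therefore not be called particular to the SOX genes. Sox2, Sox4, Sox6, Sox9, Sox11 and Sox13, 6 of the 10, were lowest in the library numbered 2 in all 3 groups, and Sox12 was highest there. The fibroblast list also had its highest sum in that library, at 3252 CPM against 220 to 339 CPM in the other shCBX8 libraries, 18770 CPM against 5681 to 7075 CPM in the other shCBX7 libraries, and 33759 CPM against 5878 to 12125 CPM in the other shCTR libraries. Between the groups, 2 of the 10 fibroblast markers fell in shCBX8, Postn (-5.70, SE 1.14, adjusted p = 0.00754) and Col1a1 (-4.54, SE 1.53, adjusted p = 0.0469), and the median of the list was -3.46. Horizontal basal cell markers summed to 1320 to 1811 CPM in shCBX8 and 397 to 1414 CPM in shCTR. Of 7 markers Trp63, the regulator of these cells, rose (1.82, SE 0.41, adjusted p = 0.0116). Krt5, Krt14, Krt15, Itgb4 and Perp were higher without passing, and Icam1 was lower without passing (-0.82, SE 0.41, adjusted p = 0.151). Sustentacular markers summed to 193 to 682 CPM in shCBX8 and 32.2 to 204 CPM in shCTR, with 0 of 5 tested genes called by edgeR and 0 at an unadjusted p under 0.05. Immature neuron markers, cells in which Sox11 is active, summed to 26.0 to 74.4 CPM in shCBX8 and 74.5 to 101 CPM in shCTR, and 2 of 4 fell. Of the other lists, 1 of 2 tested globose basal cell markers rose (Lgr5, 2.40, SE 0.81, adjusted p = 0.0464). So did 2 of 4 tested mature neuron, 2 of 4 tested respiratory ciliated and 2 of 5 tested immune cell markers. Among these, Gng13 (mature neuron) averaged 0.702 CPM in shCBX8 and 0.0537 CPM in shCTR, and Aif1 (immune) 0.743 and 0.229 CPM. Both passed the low-count filter only through shCBX8, so their calls are not separate support for a rise. Of 8 smooth muscle and pericyte markers 1 rose and 1 fell, and of 7 ensheathing and Schwann cell markers 1 fell. The part of the cell makeup in the SOX values was not tested.

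In cultures with the Cbx7 hairpin no SOX gene passed the test. edgeR called 0 of 9, with 0 at an unadjusted p under 0.05 and 0 by DESeq2, and 0% of all genes were called. No member separated the shCBX7 and shCTR libraries, against 5.42% of all genes. The 95% intervals were narrowest for Sox4, whose log2 fold change of 0.017 (SE 0.16, adjusted p = 0.995) lay between -0.34 and 0.38, and for Sox9 and Sox12. For Sox9 it was -0.31 (SE 0.29, adjusted p = 0.936), from -0.95 to 0.34, and for Sox12 -0.32 (SE 0.28, adjusted p = 0.930), from -0.96 to 0.31. Those of Sox2 (-0.56, from -2.48 to 1.35) and Sox7 (0.66, from -1.31 to 2.64) were wide enough to hide changes of several fold. For Sox11, which rose in shCBX8, the value in shCBX7 was 0.33, from -0.52 to 1.19, and for Sox13 it was -0.11, from -1.14 to 0.91. Sox5 was at 0.33, from -0.98 to 1.63, and Sox6 at -0.36, from -1.62 to 0.91. The 9 adjusted p-values were 0.930 to 0.995.

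Set directly against the Cbx7 hairpin, the Cbx8 hairpin gave higher levels of 4 of the 9 SOX genes and lower levels of none, beside 28.6% of all genes called and 15.3% called as higher. This comparison shares its shCBX8 libraries with the one against shCTR. Sox2 was higher by 3.11 on the log2 scale (SE 0.97, adjusted p = 0.0399), Sox6 by 2.33 (SE 0.61, adjusted p = 0.0223), Sox13 by 2.01 (SE 0.50, adjusted p = 0.0183) and Sox11 by 1.67 (SE 0.42, adjusted p = 0.0188). Sox7 at 2.46 (SE 0.88, adjusted p = 0.0615), Sox5 at -1.83 (SE 0.65, adjusted p = 0.0598) and Sox4 at -0.43 (SE 0.17, adjusted p = 0.0863) did not pass. Sox9 (-0.17, from -0.86 to 0.52) and Sox12 (-0.087, from -0.76 to 0.59) had intervals that held 0. No member passed without shCBX8 1, without shCBX8 6 or without shCBX7 1.

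**Figure D4:**
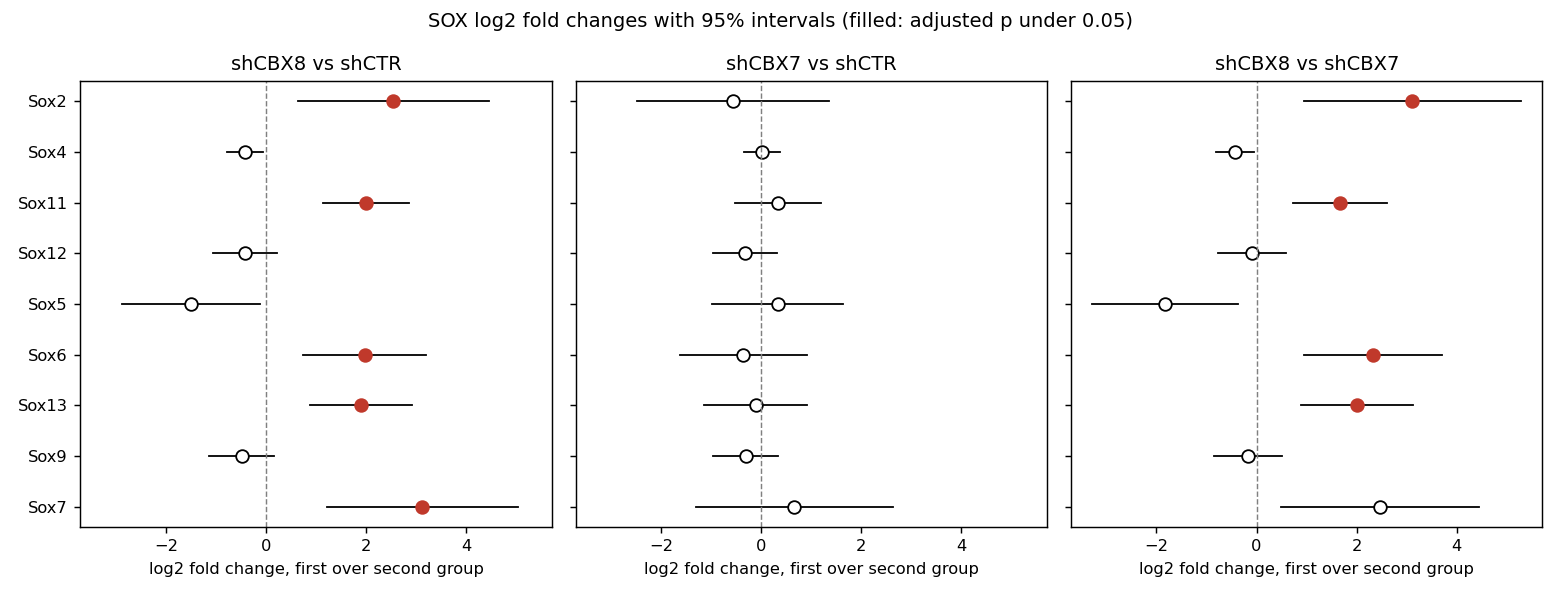
Log2 fold change (points) with 95% interval (lines) of the 9 tested SOX genes in shCBX8 against shCTR, shCBX7 against shCTR and shCBX8 against shCBX7; filled points have an adjusted p under 0.05. There are 5 filled points in the first panel, 0 in the second and 4 in the third.

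The other SOX genes of the mouse were mostly low. Of 9 looked for, Sox8, Sox10, Sox15, Sox21 and Sox30 could be tested, and in shCBX8 against shCTR 1 rose and 0 fell, with a median of 2.01. Sox15, the member of group G, rose by 2.03 (SE 0.69, adjusted p = 0.0480). It measured 0.587, 0.271 and 0.688 CPM in shCBX8, against 0.158, 0, 0.142 and 0.173 CPM in shCTR. With 28, 9 and 32 counts in shCBX8 and at most 8 in any other library, it passed the low-count filter only through shCBX8. Its call is therefore not separate support for a rise. Counts on the strand opposite to Sox15 were of similar size or higher, at 0.901, 0.451 and 0.624 CPM in shCBX8 and 0.673, 0.701, 0.356 and 0.403 CPM in shCTR. Sox21, a repressor of group B2 that counters Sox2 in neural progenitors, measured 15.7, 6.55 and 24.7 CPM in shCBX8, 0.590, 0 and 3.95 CPM in shCBX7, and 1.54, 0.451, 1.67 and 3.17 CPM in shCTR. The shCBX8 libraries were above all others, but with the wide spread its log2 fold change of 3.18 (SE 1.14, adjusted p = 0.0573) did not pass.

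Sox10, a factor of glia and glands in group E, measured 13.2, 3.40 and 13.3 CPM in shCBX8 and 1.78, 0.751, 3.70 and 3.60 CPM in shCTR. shCBX8 2 lay below shCTR 5 and 6, and the log2 fold change of 2.01 (SE 0.70, adjusted p = 0.0527) did not pass. Against shCBX7 it was 2.94 (SE 0.80, adjusted p = 0.0255). Ensheathing and Schwann cell markers, cells in which Sox10 is active, summed to 82.2 to 106 CPM in shCBX8 and 102 to 162 CPM in shCTR. Within the list Erbb3 averaged 56.0 ± 20.1 CPM in shCBX8 and 14.5 ± 7.98 CPM in shCTR (SD, n = 3 and 4; log2 fold change 1.95, SE 0.78, adjusted p = 0.0812) and Frzb 23.6 ± 35.2 CPM in shCBX8 and 85.4 ± 45.1 CPM in shCTR (-1.86, SE 1.03, adjusted p = 0.188), so the sum joins opposite signs. Sox8 (-1.69, SE 1.25) and Sox30 (-0.40, SE 0.72) did not pass (adjusted p = 0.320 and 0.695), and Sox17 had at most 23 counts in a library.

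Lists of genes that SOX proteins are known to control did not move as 1 block in shCBX8. Among 5 targets of SOX4 and SOX11, Tead2, a partner of the YAP coactivator, rose by 0.84 (SE 0.13, adjusted p = 0.00351) and Neurod1, a neuronal differentiation factor, fell by 1.78 on the log2 scale (SE 0.53, adjusted p = 0.0303), with a median of 0.84. Neurod1 was low, at 0.160 CPM in shCBX8 and 0.552 CPM in shCTR. The neuronal tubulin gene Tubb3 (-1.85, SE 0.77, adjusted p = 0.0901) and Map2 (1.42, SE 0.50, adjusted p = 0.0542) did not pass. Of 11 cartilage targets of SOX5, SOX6 and SOX9, 7 could be tested and Col9a3, a collagen IX chain, rose by 1.89 (SE 0.41, adjusted p = 0.00992), while the median was -0.65 and Col2a1, the main cartilage collagen, at -2.32 (SE 1.18, adjusted p = 0.156) did not pass.

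Of 6 targets of SOX7, SOX17 and SOX18, 3 could be tested and Prox1, a lymphatic regulator, rose by 1.06 (SE 0.32, adjusted p = 0.0334), with a median of -0.41. Of 6 SOX2 targets, 3 could be tested and 0 passed in edgeR, also unadjusted, with a median of 0.01. Nes, which encodes the progenitor filament nestin, was at 1.29 (SE 0.62, adjusted p = 0.132) and Spp1, osteopontin, at -1.45 (SE 0.71, adjusted p = 0.142). The TCF and LEF factors, which also carry an HMG box and act in Wnt signalling, moved both ways: Tcf7 rose by 0.95 (SE 0.25, adjusted p = 0.0210), while Tcf7l2 at -1.51 (SE 0.35, adjusted p = 0.0120) and Lef1 at -1.95 (SE 0.64, adjusted p = 0.0434) fell, with a median of -1.31 over the 4. In shCBX7 against shCTR edgeR called 0 genes of all these lists.

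For the 5 SOX genes that rose, the protein-coding genes with the most similar profile were found by the root mean square difference of log2 CPM, centred on each gene's mean, over the 10 libraries and 14760 candidates. The difference is on the log2 scale, and the libraries share their group differences. Nearest to Sox2 were 2610528J11Rik (0.204) and Grhl2 (0.229), which encodes a factor that maintains epithelial character. Grhl2 averaged 61.7 CPM in shCBX8, 7.79 CPM in shCBX7 and 8.77 CPM in shCTR. Nearest to Sox13 were Spata13, a guanine nucleotide exchange factor (0.164), and the cell polarity gene Llgl2 (0.197). Nearest to Sox6 were Tmem56 (0.165) and the ubiquitin ligase gene Mid2 (0.262), and nearest to Sox11 were Ppa1, a pyrophosphatase (0.199), and the sodium-proton exchanger gene Slc9a2 (0.206). For Sox7 the nearest, Nlrp12 (0.530) and Slfn4 (0.713), were farther off. Among the members themselves Sox11 and Sox13 were closest (0.282), followed by Sox4 and Sox9 (0.284) and by Sox6 and Sox13 (0.359).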

How the data were processed

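Per the submitters' processing notes, reads were handled with bcl2fastq 2.17, Trim Galore 0.4.3 and STAR 2.5.0a on mm10; per the labels' protocols, stranded libraries were made from 500 ng of total RNA. No source used here names the annotation release. The authors deposited raw counts for each Ensembl gene, unstranded, forward and reverse. The reverse-strand counts were used, since forward-strand counts were 3.42 to 10.4% of stranded gene counts. Rows that name no gene were left out (unmapped 5.03 to 21.7%, multimapping 15.4 to 22.1%, no feature 12.5 to 23.6% and ambiguous 0.290 to 0.637% of reads). Symbols, positions and exon lengths came from GENCODE M21 (GRCm38), which matched 40217 of 41091 identifiers, and promoter sequences from RefSeq on GRCm38.p6. Sox2 lies within an intron of Sox2ot on the same strand, and that transcript was not analysed here.

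Genes were kept by filterByExpr (minimum count 10; 16669 genes), scaled by TMM and tested with edgeR 4.0.16 (quasi-likelihood, all 10 libraries, group as the factor; adjusted by Benjamini-Hochberg, threshold 0.05) in R 4.3.3; the procedure was tested on simulated data. CPM is relative to the scaled library size. Likeness used log2 CPM with a prior count of 2. DESeq2 1.42.0 was an alternative, with other scalings, filters, counts, library subsets and a replicate block. The members, lists and tests were chosen with earlier results of these data known. Named genes are the members, the targeted genes, other SOX genes with 10 counts in some library, up to 4 genes per list with the smallest p, overlapping genes and the 2 nearest genes of each member called. No pair of libraries of a group agreed within sampling noise (chi-square per degree of freedom at least 27.8), so none was taken for a library deposited again; this does not show that the cultures were separate.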

Additional observations from a re-analysis of the deposited data

Results flagged for a closer look

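Sox18 in shCTR 2 measured 0.150 CPM, against 0.0288 to 0.0396 CPM in the other shCTR libraries, and stood apart by the ratio of its gap to the group's range (0.911). It rests on 3 counts, against 1 in each of the others. Chance puts about 1 in 20 groups past the limit used, which assumes continuous values and not such small counts. No other member stood apart in shCTR by this measure.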

How the results depend on the processing

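The count of SOX genes called in shCBX8 against shCTR was 5, and 4 to 6 under the scaling, filter, strand, abundant-gene, 2-group and DESeq2 alternatives. It was 2 to 6 when 1 library was left out and 0 without shCTR 1 and 2 together (log2 fold changes then 1.52 to 3.24 for the 5). With the replicate number as a block it was 6, all 5 and Sox4 (-0.42, adjusted p = 0.0400). Each count of 6 in this comparison includes Sox4 or Sox5, which were lower in shCBX8. Against shCBX7 the count was 4, or 0 to 5 with 1 library left out, 2 with only the 2 groups in the fit, and 5 with the replicate block. In shCBX7 against shCTR it was 0 under each of the 22 alternatives. The numbers may not pair the libraries: same-numbered libraries deviated together with r of 0.0764 to 0.262 in shCBX8 and shCTR, and -0.105 to 0.698 in shCBX7 and shCTR, and 2 of 3 libraries were most like their own number in each.

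Signs turned only for members that did not pass, mostly near 0. In shCBX7 against shCTR these were Sox4 (-0.016 with a mean of at least 1 CPM, -0.030 after subtraction of forward-strand counts, -0.13 without shCTR 1 and 2), Sox5 (-0.15 without shCTR 1 and 2) and Sox13 (0.0033 with the replicate block, 0.029 without number 2). With 1 library left out the ranges were -0.072 to 0.10 for Sox4, -0.14 to 0.76 for Sox5, -0.71 to 0.20 for Sox13, -0.84 to 0.041 for Sox6, -0.027 to 0.69 for Sox11 and -0.35 to 0.075 for Sox12 between the knockdowns. Between the knockdowns Sox12 was 0.053 by library size alone and 0.037 with the replicate block. The causes were not tested. Depth limits Sox7 and Sox18, with 23 and 6 counts over all shCTR libraries.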
